A study of Mus musculus with 12 samples.

Results

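The genes described here encode proteins of the lysosome: 9 cathepsins, 2 other proteases, 6 glycosidases, 7 lipid enzymes and cofactors, 7 membrane proteins and 7 subunits of the proton pump. They were chosen by name from a list of 38 genes, and all 38 had 1 transcript cluster of their own (a set of array probes for 1 gene) among the 19752 genes tested. Mice were C57BL/6, aged 8 weeks, and the tissue was the tibialis anterior (TA), a shin muscle taken whole, injured on day 0 with the venom toxin cardiotoxin, which destroys fibres. All mice, controls included, received diphtheria toxin every other day. Foxp3-DTR+ mice carry a diphtheria toxin receptor under control of Foxp3, so that the toxin removes regulatory T (Treg) cells, and Foxp3-DTR- mice lack it. The agent tested was amphiregulin (AREG), a ligand of the epidermal growth factor receptor, injected into the muscle on day 0 and into the peritoneum every other day, with phosphate-buffered saline (PBS) as the vehicle. There were 4 groups of 3 arrays. Foxp3-DTR- muscle was taken at day 4 and Foxp3-DTR+ muscle at day 8, each after AREG or PBS. Day and genotype changed together and cannot be told apart. Whether the arrays of a group hold different animals is not stated in the labels, so the p-values reflect sample-to-sample spread that may be technical.

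Lysosomes are acidic organelles in which hydrolases break down protein, glycans, glycogen and lipid delivered by phagocytosis, endocytosis and autophagy. A vacuolar proton pump acidifies them, and heavily glycosylated membrane proteins line them. Many of these genes share a promoter element read by TFEB and related transcription factors. In injured muscle, macrophages that engulf dead fibres are rich in lysosomes, and fibres themselves need acid glucosidase and autophagy to turn over glycogen and organelles.

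Intensities are given as log2 values, in which a difference of 1 is a doubling. Each cluster has its own probe response, so values are compared between arrays for 1 gene and not between genes. The median level over all genes was 7.15, and all 38 members were above it, as were 10 of 10 markers of mature muscle fibres, the labelled tissue, and 14 of 15 macrophage markers. The arrays labelled replicate 1 at day 4 had the narrowest spread of values over all genes, with interquartile ranges of 2.07 (AREG) and 2.27 (PBS) against 2.39 to 2.61 on the other arrays. Replicate 3 of the day 8 AREG group also stood apart, with the lowest value of all 12 arrays for 17 of the 38 members and the highest for 3. Counts of called genes are therefore given with and without such arrays.

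Promoter sequences are shown because the family is known for a shared element. Whether that element had a part in the changes with AREG was not tested. RefSeq windows of 300 bases (GRCm38.p6), from 250 bases before to 50 bases after a gene's start, were on hand for 30 of the 38 members, with 33 windows in all. The letters CACGTG (an E-box, the same on both strands) were in 10 of the 33 windows (30.3%), against 7.15% of all 32851 windows. The longer palindrome TCACGTGA, which contains CACGTG and is the centre of the element bound by TFEB, was in 6 windows (18.2%), against 0.974% of all. The 250 bases before the start are printed 5′ to 3′ on the gene's own strand, with CACGTG and TCACGTGA in capitals. Ctsd (chr7:142387828-142388077, minus strand), Gla (chrX:134601006-134601255, minus strand), Atp6v1a (chr16:44139260-44139509, minus strand) and Mcoln1 (chr8:3500269-3500518, plus strand) hold TCACGTGA. Lamp1 (chr8:13158911-13159160, plus strand) holds 4 copies of CACGTG close to its start, and Cd68 (chr11:69666171-69666420, minus strand) holds neither.
Ctsd: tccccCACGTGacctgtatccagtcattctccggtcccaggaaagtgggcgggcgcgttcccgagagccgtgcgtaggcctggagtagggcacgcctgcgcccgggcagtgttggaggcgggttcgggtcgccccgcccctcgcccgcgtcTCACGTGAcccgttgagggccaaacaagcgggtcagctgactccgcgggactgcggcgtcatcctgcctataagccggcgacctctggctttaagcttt
Gla: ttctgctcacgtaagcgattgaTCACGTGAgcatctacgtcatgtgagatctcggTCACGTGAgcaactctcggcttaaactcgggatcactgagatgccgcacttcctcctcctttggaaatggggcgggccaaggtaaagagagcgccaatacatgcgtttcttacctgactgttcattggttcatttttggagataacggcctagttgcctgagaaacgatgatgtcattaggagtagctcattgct
Atp6v1a: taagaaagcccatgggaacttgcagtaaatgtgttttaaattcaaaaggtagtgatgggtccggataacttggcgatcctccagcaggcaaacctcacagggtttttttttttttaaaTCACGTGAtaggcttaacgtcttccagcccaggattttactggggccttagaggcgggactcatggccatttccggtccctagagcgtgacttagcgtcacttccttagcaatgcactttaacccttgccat
Mcoln1: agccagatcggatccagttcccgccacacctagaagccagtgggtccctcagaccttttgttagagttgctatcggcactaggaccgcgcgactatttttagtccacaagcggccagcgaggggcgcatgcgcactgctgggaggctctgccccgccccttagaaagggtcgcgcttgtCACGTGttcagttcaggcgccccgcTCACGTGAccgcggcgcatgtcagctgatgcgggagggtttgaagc
Lamp1: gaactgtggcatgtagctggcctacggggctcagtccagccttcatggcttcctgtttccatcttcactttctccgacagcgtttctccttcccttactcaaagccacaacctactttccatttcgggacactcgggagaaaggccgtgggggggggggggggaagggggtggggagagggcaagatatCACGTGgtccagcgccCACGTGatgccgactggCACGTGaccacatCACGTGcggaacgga
Cd68: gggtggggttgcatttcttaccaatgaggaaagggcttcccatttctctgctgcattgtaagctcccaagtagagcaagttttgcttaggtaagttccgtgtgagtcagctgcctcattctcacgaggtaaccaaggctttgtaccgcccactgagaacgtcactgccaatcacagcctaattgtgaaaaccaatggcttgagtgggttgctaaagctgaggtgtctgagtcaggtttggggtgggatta

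The first comparison asked how lysosomal genes responded to AREG at day 4 in Foxp3-DTR- mice. Of the 38 members 14 fell and 0 rose (limma, Benjamini-Hochberg adjusted p under 0.05 over all 19752 genes), against 2.11% of all genes called lower and 0.79% called higher. The fall reached every role: 4 of 9 cathepsins, 1 of 2 other proteases, 2 of 6 glycosidases, 2 of 7 lipid enzymes and cofactors, 3 of 7 membrane proteins and 2 of 7 pump subunits. The median change of the 38 members was -0.62 on the log2 scale, beside 0.04 for all genes. In all, 34 members were below 0, against 40.9% of all genes, and 28 had an unadjusted p under 0.05, against 17%. In 26 members every AREG array lay below every PBS array, which was so for 12% of all genes, and in 0 members every AREG array lay above, against 10.2%. The call count rested on single arrays, and the share of all genes called (2.9% in the main fit) moved too. Without AREG replicate 1, AREG replicate 3 or PBS replicate 2, 0 members passed, with 0.0759%, 0.0456% and 0.0456% of all genes. Without PBS replicate 3, 6 members passed (2.12% of all genes). Without replicate 3 of the day 8 AREG group, which enters through the shared spread, 23 passed (6.76%). Without both replicate 1 arrays of day 4, a fit added after seeing the data, 0 members and 0% of all genes passed. The median was far less sensitive and stayed between -0.72 and -0.53 under all alternatives tried. In whole tissue, fewer cells of a type and less RNA per cell cannot be told apart.

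**Figure D1:**
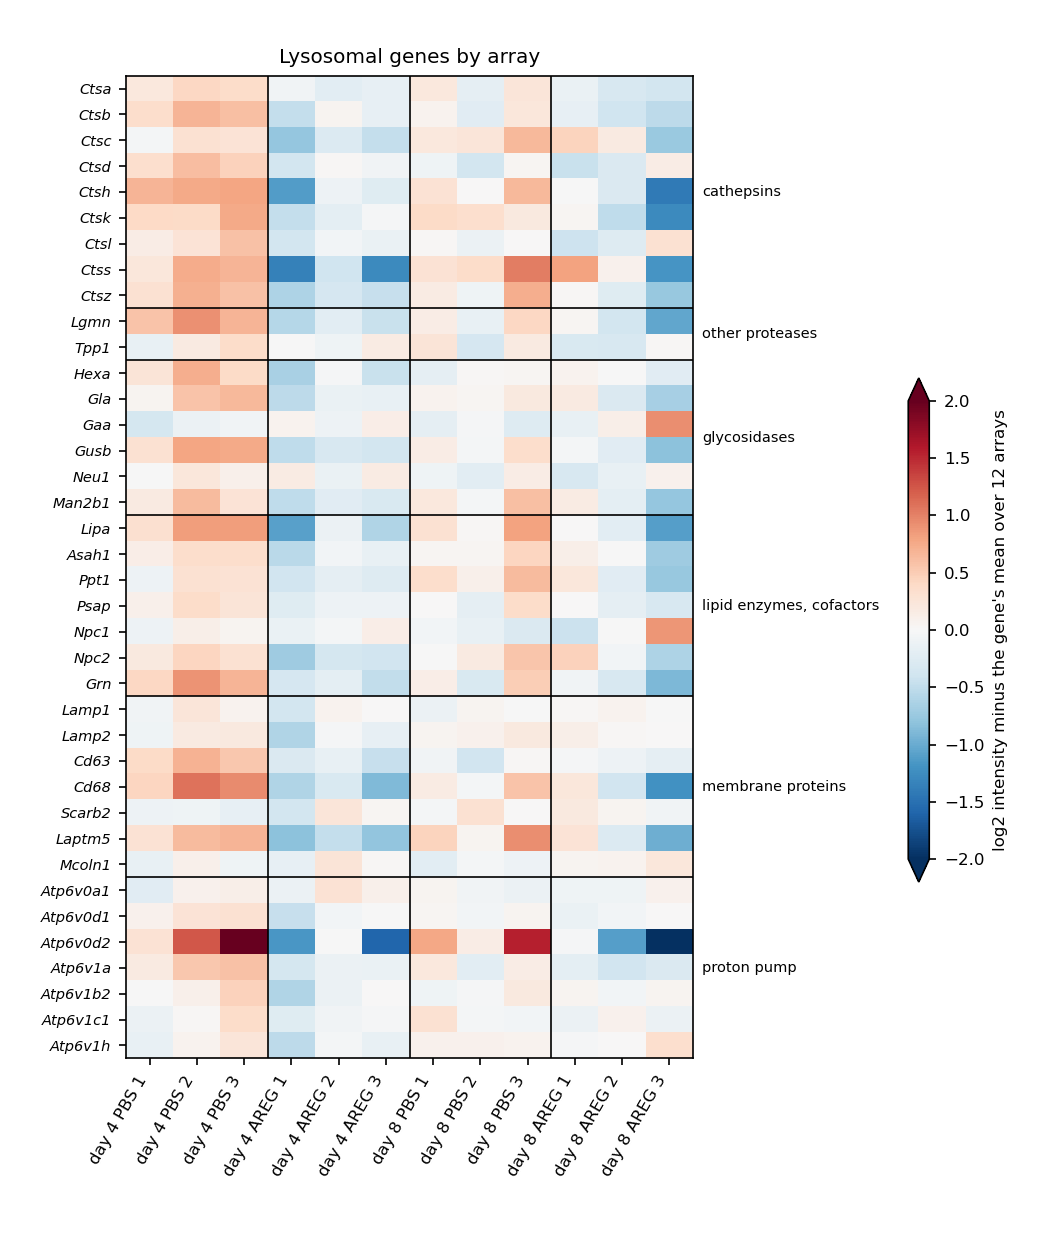
Heat map of the 38 lysosomal genes (rows, grouped by role) on the 12 arrays (columns, grouped by day and treatment), coloured by log2 intensity minus the gene's own mean over the 12 arrays, with the scale ending at -2 and 2. The PBS columns of day 4 are mostly red and the AREG columns mostly blue, replicate 3 of the day 8 AREG group holds the lowest value of 17 genes, and Gaa and Npc1 are red there.

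Among the cathepsins, Ctss and Ctsh had the largest falls at day 4. Ctss, a cysteine protease of antigen-presenting cells that trims the invariant chain, read 8.41, 9.37 and 8.48 with AREG and 9.99, 10.50 and 10.44 with PBS. On the log2 scale Ctss fell by 1.56 ± 0.38 (the error is the SE of the fit, n = 3 arrays in each group), which is 2.94-fold, with an adjusted p of 0.0429 (limma). The groups did not overlap, and AREG replicate 2 was the highest of its group. Ctsz, a carboxypeptidase, read 9.51, 9.79 and 9.67 with AREG and 10.44, 10.84 and 10.71 with PBS, and fell by 1.01 ± 0.21 (adjusted p = 0.0273, limma). Ctsb, a broadly expressed cysteine protease, read 11.09, 11.62 and 11.40 with AREG and 11.92, 12.25 and 12.17 with PBS, and fell by 0.74 ± 0.16 (adjusted p = 0.0299, limma). In both genes all AREG arrays lay below all PBS arrays, with AREG replicate 2 again nearest to the PBS group. Ctsh, an aminopeptidase, fell by 1.23 ± 0.31 (adjusted p = 0.0458, limma).

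The other 5 cathepsins, Ctsa, Ctsc, Ctsd, Ctsk and Ctsl, did not pass at values of -0.74 ± 0.24 to -0.48 ± 0.13, although in each of them, too, the groups did not overlap. Ctsd, the main aspartic protease of the lysosome, lay just outside the threshold at -0.62 ± 0.16 (adjusted p = 0.0537, limma), as did Ctsa, a carboxypeptidase that protects the sialidase Neu1, at -0.48 ± 0.13 (adjusted p = 0.059). Ctsk, the collagen-degrading cathepsin of osteoclasts, was at -0.74 ± 0.24 (adjusted p = 0.106). When the replicate number was added as a block, 18 members passed, and so did 4.63% of all genes. The 4 that this fit added were Ctsd (adjusted p = 0.0198), Ctsa (0.0486), Ctsk (0.0412) and Gla (0.0345). Over 21 alternatives their adjusted p reached 0.286, 0.291, 0.358 and 0.323 at the highest and 0.000403, 0.000459, 0.00878 and 0.000689 at the lowest. The 14 members called passed in 8 to 17 of these alternatives each.

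Lgmn (legumain), which cuts after asparagine and matures several cathepsins, read 9.80, 10.17 and 9.92 with AREG and 10.95, 11.28 and 11.05 with PBS. It fell by 1.13 ± 0.22 (a 2.19-fold change, adjusted p = 0.0218, limma), with no overlap. Tpp1, a peptidase that removes tripeptides from protein ends, read 9.63, 9.56 and 9.80 with AREG and 9.49, 9.83 and 10.01 with PBS. Its groups overlapped, at a change of -0.11 ± 0.17 with a 95% interval of -0.47 to 0.25.

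Among the glycosidases, Gusb and Hexa fell. Gusb (beta-glucuronidase), which trims glycosaminoglycans, read 7.23, 7.42 and 7.37 with AREG and 8.05, 8.54 and 8.50 with PBS. It fell by 1.02 ± 0.19 (a 2.03-fold change, adjusted p = 0.0198, limma), with no overlap and little spread among the AREG arrays. Hexa, a subunit of beta-hexosaminidase, which degrades gangliosides, read 9.19, 9.83 and 9.40 with AREG and 10.11, 10.58 and 10.24 with PBS. It fell by 0.83 ± 0.16 (adjusted p = 0.0226, limma), with no overlap. The alpha-galactosidase Gla (-0.70 ± 0.20) and the alpha-mannosidase Man2b1 (-0.71 ± 0.21) were lower on every AREG array but did not pass (adjusted p = 0.0673 and 0.0804, limma). Neu1, the sialidase, was at -0.05 ± 0.14 with overlapping groups. Gaa, the acid glucosidase that breaks down glycogen in fibres, had the largest value above 0 among the members. It read 10.56, 10.39 and 10.62 with AREG and 10.14, 10.37 and 10.41 with PBS (0.22 ± 0.20, adjusted p = 0.695, limma), and the groups overlapped.

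In the lipid group, Lipa and Grn fell. Lipa, the acid lipase that frees cholesterol and fatty acids from ingested lipid, read 8.30, 9.26 and 8.78 with AREG and 9.69, 10.21 and 10.21 with PBS. It fell by 1.26 ± 0.29 (a 2.39-fold change, adjusted p = 0.0338, limma), and AREG replicate 1 was the lowest array of the day. Grn (progranulin), a secreted precursor that is cut in lysosomes, read 10.43, 10.57 and 10.28 with AREG and 11.18, 11.66 and 11.44 with PBS, and fell by 1.00 ± 0.21 (adjusted p = 0.0297, limma). Psap, the precursor of the saposins that present lipids to hydrolases, had the highest mean intensity of the member clusters and read 12.14, 12.29 and 12.28 with AREG and 12.49, 12.75 and 12.64 with PBS. Its groups did not overlap but it did not pass (-0.39 ± 0.14, adjusted p = 0.153, limma). The cholesterol carrier Npc2 (-0.79 ± 0.21, adjusted p = 0.0578), the acid ceramidase Asah1 (-0.53 ± 0.19) and the thioesterase Ppt1 (-0.44 ± 0.21) did not pass either. Npc1, the membrane partner of Npc2, was at -0.04 ± 0.23 with overlapping groups.

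Of the 7 membrane proteins Cd63, Cd68 and Laptm5 fell. Cd68, the glycoprotein used as a macrophage marker, read 9.18, 9.48 and 8.90 with AREG and 10.21, 10.87 and 10.73 with PBS. It fell by 1.42 ± 0.28 (a 2.67-fold change, adjusted p = 0.0251, limma). Laptm5, a transmembrane protein of blood-derived cells, read 9.73, 10.07 and 9.76 with AREG and 10.84, 11.18 and 11.23 with PBS, and fell by 1.23 ± 0.26 (adjusted p = 0.0297, limma). In both genes the highest AREG array (replicate 2) lay well below the lowest PBS array (replicate 1). Cd63, a tetraspanin of late endosomes and exosomes, had the smallest p of all members. It read 9.90, 10.04 and 9.72 with AREG and 10.58, 10.89 and 10.72 with PBS, and fell by 0.84 ± 0.13 (adjusted p = 0.0168, limma).

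Lamp1, the abundant glycoprotein of the lysosomal membrane, read 11.27, 11.71 and 11.64 with AREG and 11.57, 11.89 and 11.71 with PBS (-0.18 ± 0.13, 95% interval -0.46 to 0.09). Its groups overlapped, and AREG replicate 1 was the lowest array of the day. Lamp2, which also serves autophagy, was at -0.36 ± 0.14, Scarb2, the sorting receptor of glucocerebrosidase, at 0.09 ± 0.15 (95% interval -0.23 to 0.41), and the calcium channel Mcoln1 at 0.08 ± 0.13 (95% interval -0.18 to 0.35). None of these 4 passed.

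The proton pump subunits showed the widest range. Atp6v0d2, an alternative subunit of the membrane sector known from osteoclasts and macrophages, read 6.44, 7.59 and 6.01 with AREG and 7.88, 8.84 and 9.63 with PBS. It had the largest fall of all members, 2.11 ± 0.53 on the log2 scale (a 4.30-fold change, adjusted p = 0.0463, limma). It was also the most variable member, with an SD of 0.82 among the AREG and 0.87 among the PBS arrays, and AREG replicate 2 came close to PBS replicate 1. Atp6v1a, the catalytic subunit that splits ATP, read 8.50, 8.73 and 8.72 with AREG and 9.02, 9.38 and 9.43 with PBS, and fell by 0.63 ± 0.14 (adjusted p = 0.0334, limma). The other 5 subunits ranged from -0.42 ± 0.16 (Atp6v1b2) to 0.10 ± 0.13 (Atp6v0a1), and 0 of them passed.

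Atp6v0d1 is the widely expressed counterpart of Atp6v0d2, and it was at -0.39 ± 0.13 at day 4 and -0.07 ± 0.13 at day 8. Within each array, Atp6v0d2 minus Atp6v0d1 averaged -1.95 ± 0.81 (SD, n = 3) with AREG and -0.23 ± 0.77 with PBS at day 4, and -2.24 ± 1.15 with AREG and -0.38 ± 0.66 with PBS at day 8. On both days each AREG array lay below each PBS array. The AREG effect on this difference was -1.72 at day 4 and -1.86 at day 8, and its level has no meaning of its own because the clusters respond differently. The pair was picked with these values known, so no test is given.

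**Figure D2:**
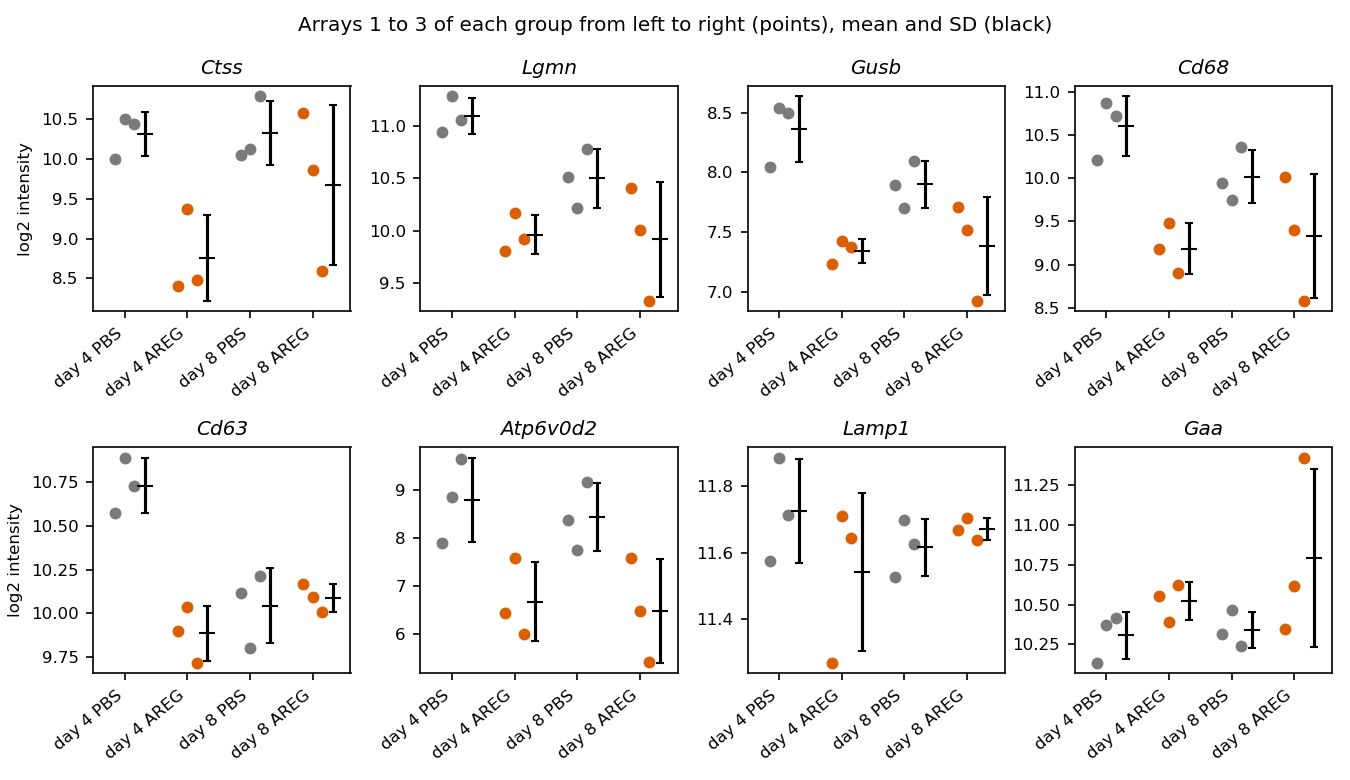
Log2 intensity of 8 members on each array, in panels with separate axes. Points are arrays 1 to 3 of a group from left to right (grey PBS, orange AREG), and the black mark and bar are the mean and SD of the group (n = 3). AREG and PBS arrays of day 4 are apart in all panels but those of Lamp1 and Gaa, and Cd63 is high only in the PBS arrays of day 4.

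Genes of other cell types moved at day 4 as well. Of 15 macrophage markers, none of them a member, 14 were lower and 8 fell, among them Msr1, a scavenger receptor (-1.23 ± 0.24), Fcgr1, an IgG receptor (-0.99 ± 0.20), and Csf1r, the receptor of macrophage growth factor (-0.97 ± 0.23). The summed level of these markers ranged from 12.92 to 13.27 with AREG and from 13.98 to 14.30 with PBS, and that of the 38 lysosomal genes from 15.03 to 15.35 and from 15.59 to 15.91. Of 7 markers of regenerating fibres 4 fell (summed level 13.64 to 13.99 with AREG, 14.23 to 14.67 with PBS). Of 9 fibroblast markers 8 were lower and 0 were called (summed level 13.95 to 14.22 with AREG, 14.39 to 14.65 with PBS). Mature fibre markers spanned 16.62 to 16.74 with AREG and 16.51 to 16.64 with PBS, with 0 of 10 called. All 10 were higher with AREG (median 0.14), as were 11667 of all 19752 genes. In 6 of them every AREG array lay above every PBS array, against 10.2% of all genes. Of the osteoclast markers only Acp5, an acid phosphatase also made by macrophages, fell (-0.92 ± 0.21), and 6 of the 10 markers lay below the median level of all genes. Of 8 endothelial, 8 neutrophil and 6 mast cell markers 0 were called, and 0 of the neutrophil markers lay above that median. Higher with AREG were 7 of the 8 endothelial (median change 0.30) and 6 of the 6 mast cell markers (0.14). Of the 8 neutrophil markers 6 were lower (-0.14). The part of these cell types in the lysosomal values was not tested.

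**Figure D3:**
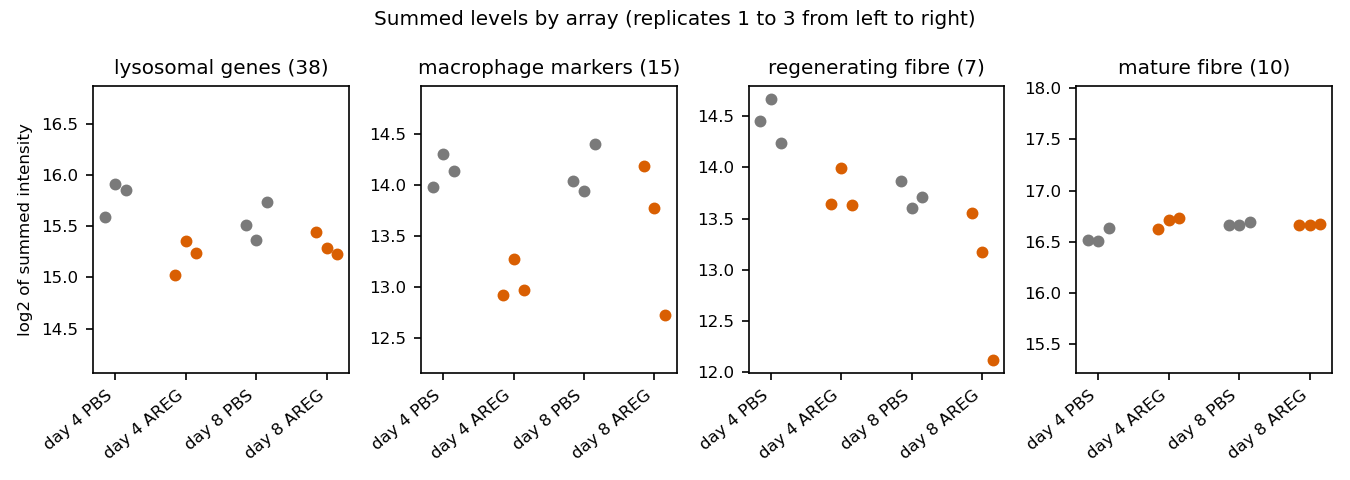
Log2 of the summed intensity of the 38 lysosomal genes and of 3 marker lists on each array (points; replicates 1 to 3 of a group from left to right; grey PBS, orange AREG), with axes of equal height. At day 4 the lysosomal, macrophage and regenerating fibre sums are lower in all AREG arrays than in all PBS arrays, while at day 8 replicate 3 of the AREG group has the lowest macrophage and regenerating fibre sums.

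Further genes of the pathway, in lists apart from the members, were followed at day 4. Among 24 measured hydrolases outside the members 2 fell, the phospholipase Pla2g15 (-0.55 ± 0.13) and the sulfatase Galns (-0.64 ± 0.15), and the median was -0.31. Of 12 further pump genes Tcirg1, the membrane subunit of the osteoclast pump, fell (-0.95 ± 0.21), with a median of -0.13. Among 16 further membrane proteins 0 passed (median -0.12), and among 12 sorting genes Gga2, an adaptor that carries hydrolases from the Golgi, fell (-0.66 ± 0.13). Of 7 inhibitors of lysosomal or leukocyte proteases, Cstb (-1.01 ± 0.26), a cystatin that blocks cathepsins, and the serpin Serpinb1a (-1.26 ± 0.29) fell. Among 14 regulators of lysosome formation and of nutrient sensing at its surface, Rragd, a GTPase of that pathway, rose (0.69 ± 0.14), and the median was 0.00. None of 15 autophagy genes passed, and their median was 0.08. Of the 6 members whose promoter window holds TCACGTGA, 1 fell (Atp6v1a, median of the 6 -0.55), and of the 24 members whose windows lack these letters 10 fell (median -0.73). For CACGTG, 2 of 10 members with it fell (median -0.50) and 9 of 20 without it (median -0.77). A further motif that was searched, GAGGAAGT, was in 12.1% of member windows against 3.2% of all windows. Of the 4 members with it 2 fell (median -0.86), and of the 26 without it 9 fell (median -0.57).

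The second comparison was AREG against PBS at day 8 in Foxp3-DTR+ mice. Of the 38 members 0 passed in limma, against 0.00506% of all genes called lower and 0% called higher, and 16 had an unadjusted p under 0.05, against 7.62% of all genes. With array quality weights 12 members passed, and so did 6.03% of all genes. The median change was -0.33, beside 0.01 for all genes, and 31 members were below 0, against 48.8% of all genes. By role, the medians were -0.41 for the cathepsins, -0.22 for the glycosidases, -0.37 for the lipid group, -0.03 for the membrane proteins and -0.07 for the pump subunits. In 4 members, Ctsh, Ctsk, Lipa and Atp6v0d2, every AREG array lay below every PBS array, against 7.14% of all genes, and in 1, Mcoln1, every AREG array lay above, against 7.06%. The median was -0.17 without AREG replicate 3 and -0.21 without PBS replicate 3. Macrophage, regenerating fibre and fibroblast markers were lower too, with 0 genes called. Of the macrophage markers 14 of 15 were lower (median -0.47). So were 7 of 7 of regenerating fibres (-0.59, summed level 12.12 to 13.55 with AREG and 13.60 to 13.87 with PBS). Of the fibroblast markers 9 of 9 were lower (-0.42, summed level 13.42 to 14.19 with AREG and 14.07 to 14.32 with PBS). The medians of the other marker lists lay between -0.07 (mast cells) and 0.09 (neutrophils, 6 of 8 higher). In the further pathway lists 0 genes were called at day 8.

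The members with the smallest p at day 8 are given as values. Ctsk read 8.36, 7.80 and 7.04 with AREG and 8.69, 8.65 and 8.51 with PBS (-0.88 ± 0.24, adjusted p = 0.599, limma). Atp6v0d2 read 7.57, 6.49 and 5.42 with AREG and 8.38, 7.75 and 9.16 with PBS (-1.93 ± 0.53, adjusted p = 0.599). In both, AREG replicate 3 was the lowest of all 12 arrays. Laptm5 read 10.82, 10.27 and 9.57 with AREG and 10.99, 10.59 and 11.47 with PBS (-0.80 ± 0.26, adjusted p = 0.6), and Ppt1 9.78, 9.32 and 8.79 and 9.91, 9.66 and 10.19 (-0.62 ± 0.21, adjusted p = 0.607). In these the groups overlapped through AREG replicate 1. Ctss had a wide spread of the same order, at 10.57, 9.85 and 8.59 with AREG and 10.05, 10.13 and 10.78 with PBS.

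Gaa had the largest value above 0 at day 8 and rested on 1 array. It read 10.35, 10.62 and 11.42 with AREG and 10.32, 10.46 and 10.24 with PBS (0.46 ± 0.20, adjusted p = 0.647, limma). Npc1 had the same shape, at 9.72, 10.14 and 11.04 with AREG and 10.10, 10.01 and 9.86 with PBS. In both genes AREG replicate 3 was the highest of the 12 arrays, while the summed macrophage markers there were the lowest (12.73, against 14.19 and 13.78 in the other AREG arrays and 13.94 to 14.40 with PBS). The part of the marked cell types in the day 8 values was not tested.

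The AREG effects of both days share no arrays and could be set side by side. Across the 38 members they had a Pearson correlation of 0.848 and a Spearman correlation of 0.783, beside 0.498 and 0.381 across all 19752 genes. This is a description across genes, which are not independent and were normalised together. Atp6v0d2 lay apart from the other members in both effects (-2.11 at day 4, -1.93 at day 8), and no correlation was taken without it. All 38 members were above the median level of all genes, so the 2 sets also differ in brightness. In 30 of the 38 members both effects were below 0, as in 5314 of the 19752 genes, and in 32 the day 4 effect was the lower one, against 47.2% of all genes. The test of the difference itself called 0 members in limma (0% of all genes), with 3 at an unadjusted p under 0.05 against 5.87% of all genes. With array quality weights 7 members passed, and so did 11.3% of all genes. The median difference was 0.32, and 0.19 without day 4 AREG replicate 1.

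**Figure D4:**
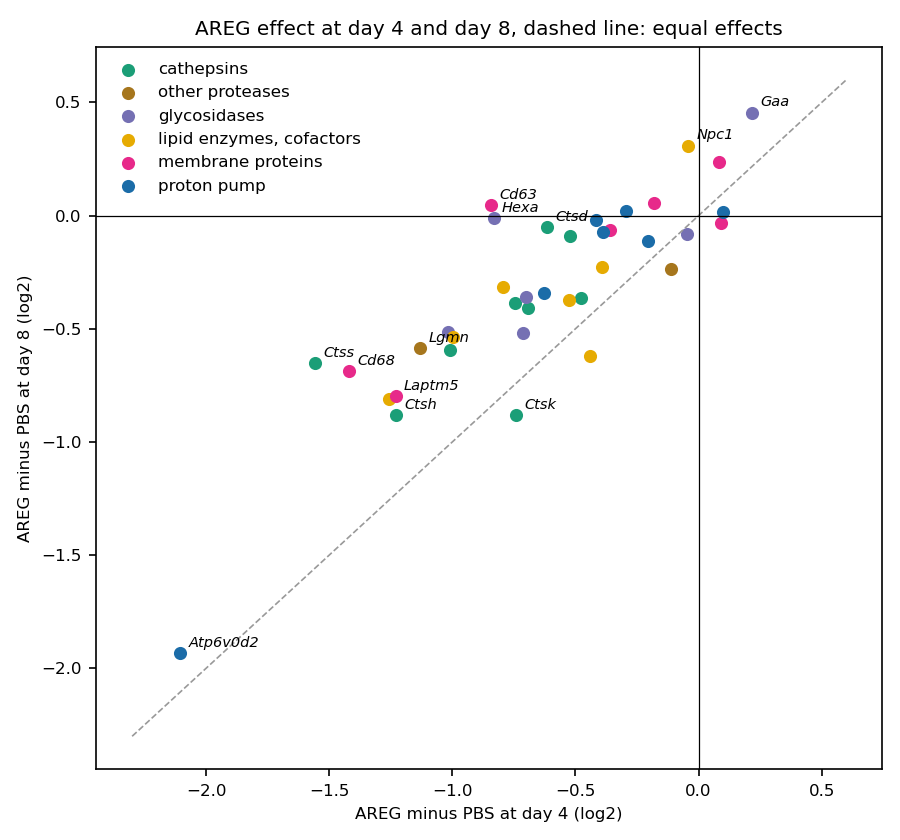
AREG minus PBS on the log2 scale at day 4 (horizontal axis) and at day 8 (vertical axis) for the 38 members, coloured by role, with a dashed line of equal effects. Atp6v0d2 lies at the lower left near the line, 32 members lie above the line, and Cd63 and Hexa lie near 0 on the vertical axis.

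Cd63 and Hexa had the largest differences relative to their error. Cd63 read 10.17, 10.09 and 10.01 with AREG and 10.12, 9.80 and 10.21 with PBS at day 8, a change of 0.05 ± 0.13 where day 4 had -0.84 ± 0.13. The difference between days was 0.89 ± 0.19 (95% interval 0.49 to 1.29, adjusted p = 0.523, limma). Hexa read 9.93, 9.85 and 9.63 with AREG and 9.67, 9.88 and 9.89 with PBS at day 8, and its difference was 0.82 ± 0.23 (95% interval 0.33 to 1.31, adjusted p = 0.579). Ctsd, which was among the brightest clusters, read 11.25, 11.64 and 11.55 with AREG and 11.96, 12.25 and 12.09 with PBS at day 4, and 11.19, 11.34 and 11.78 and 11.54, 11.26 and 11.66 at day 8, a difference of 0.57 ± 0.23 (adjusted p = 0.799). The intervals of these 3 genes lay above 0, but none passed over all genes. The largest difference by size was that of Ctss, 0.91 ± 0.54, with an interval of -0.24 to 2.05, and the lowest that of Ppt1, -0.18 ± 0.29.

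Averaged over both days, 17 members fell with AREG and 0 rose, against 3% of all genes called lower and 0.415% called higher. The median was -0.44, beside 0.03 for all genes. In 4 members, Ctsh, Ctsk, Lipa and Atp6v0d2, the AREG arrays lay below the PBS arrays on both days, against 2.3% of all genes. The members called were 6 cathepsins, Lgmn, 3 glycosidases, Lipa and Grn, the membrane proteins Cd63, Cd68 and Laptm5, and the pump subunits Atp6v0d2 and Atp6v1a. Compared with day 4 alone, Ctsa (-0.42 ± 0.09), Ctsk (-0.81 ± 0.17), Gla (-0.53 ± 0.14) and Man2b1 (-0.62 ± 0.15) were added, and Hexa (-0.42 ± 0.12, adjusted p = 0.0583, limma) was not called. With the replicate block 19 members passed, and so did 5.59% of all genes: Hexa (adjusted p = 0.0209, from 0.00112 to 0.182 over the alternatives) and Ctsd (0.0424 against 0.123 without the block, from 0.00112 to 0.301) were added. Of the 24 further hydrolases 7 fell, and of the 15 macrophage markers 10. Gusb, Lgmn, Laptm5, Ctsz, Atp6v0d2 and Cd68 had the smallest p, with Gusb at -0.77 ± 0.13 (adjusted p = 0.0141) and Atp6v0d2 at -2.02 ± 0.37 (adjusted p = 0.0185). Again the count rested on single arrays, and the share of all genes called (3.41% in the main fit) fell too. Without day 4 AREG replicate 1 or day 4 PBS replicate 2, 0 members passed, with 0.309% and 0.172% of all genes. Without replicate 1 or 3 of the day 8 PBS group, 4 or 2 passed, with 0.405% and 0.329% of all genes.

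**Figure D5:**
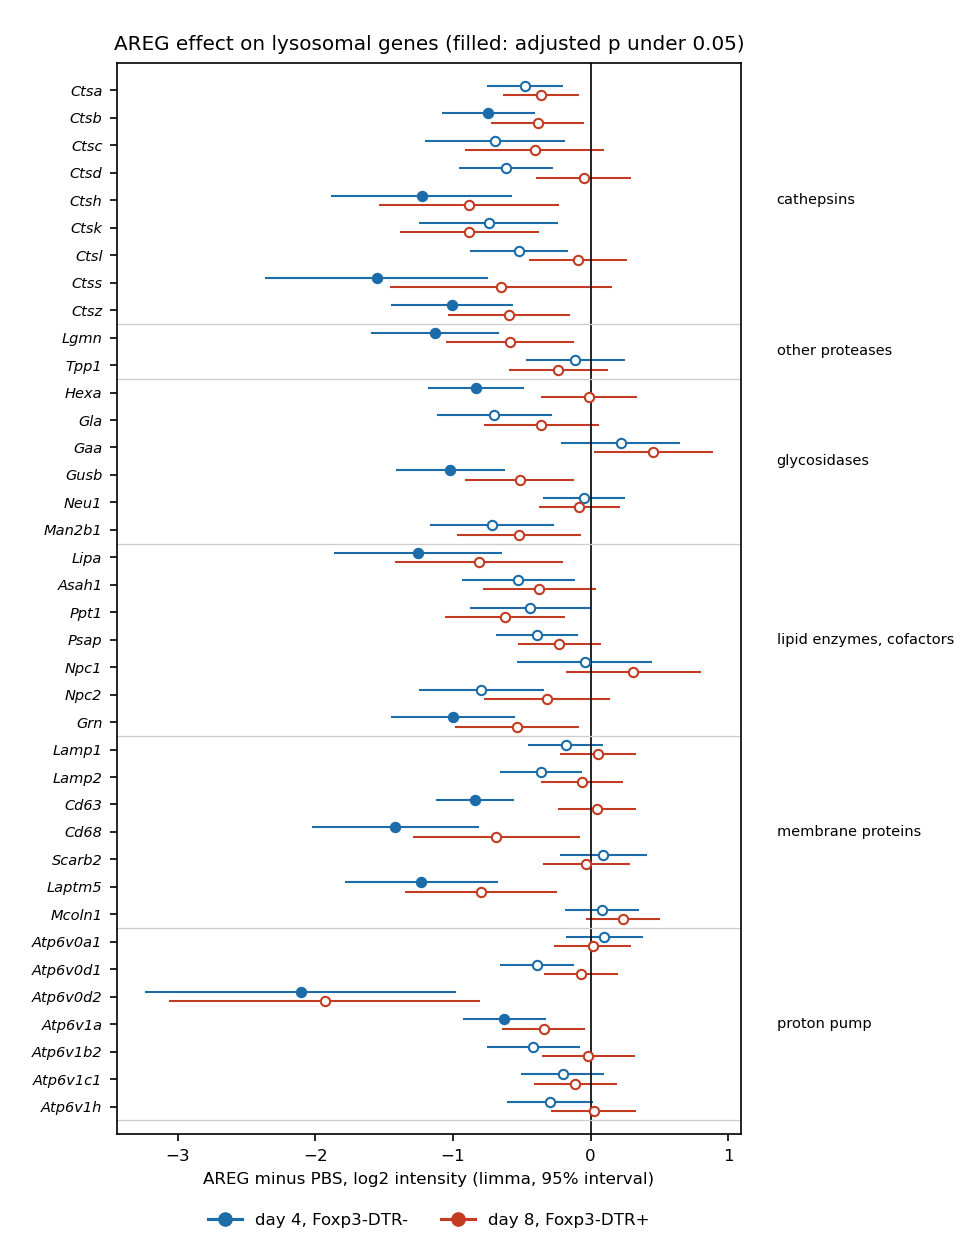
AREG minus PBS on the log2 scale for each member at day 4 (blue) and day 8 (red), with 95% intervals from the fit and filled points where the adjusted p was under 0.05. Blue points are filled for 14 members, all left of 0, no red point is filled, and Atp6v0d2 has the widest intervals.

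The vehicle groups were compared to see how lysosomal genes stood without AREG in Foxp3-DTR+ muscle at day 8 and in Foxp3-DTR- muscle at day 4. This comparison shares its PBS arrays with both AREG comparisons. Of the 38 members 1 fell, Cd63, and 0 rose, against 1.15% of all genes called lower and 1.19% called higher. Cd63 went from 10.58, 10.89 and 10.72 to 10.12, 9.80 and 10.21, a fall of 0.68 ± 0.13 (a 1.61-fold change, adjusted p = 0.0113, limma). The call was lost without PBS replicate 2 of either day. With the replicate number as a block 2 members passed, the other being Ctsd (-0.61 ± 0.16; adjusted p = 0.0656 without and 0.0434 with the block, from 0.00279 to 0.342 over the alternatives).

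The members' median between the vehicle groups was -0.18 (-0.10 without day 8 replicate 2), beside -0.04 for all genes, and 31 members were below 0, against 58.7% of all genes. In 9 members every day 8 array lay below every day 4 array, against 14.2% of all genes, and 5 of these were cathepsins. The lowest changes after Cd63 and Ctsd were those of Lgmn (-0.59 ± 0.22), Cd68 (-0.59 ± 0.28) and Grn (-0.56 ± 0.21). In 1 member, Scarb2, every day 8 array lay above, against 9.17% of all genes. It had the highest change, from 9.54, 9.55 and 9.48 to 9.61, 9.94 and 9.65 (0.21 ± 0.15, adjusted p = 0.586, limma). The macrophage markers had a median of -0.04 with 0 of 15 called, and their sums overlapped (13.98 to 14.30 at day 4, 13.94 to 14.40 at day 8). Of the 7 markers of regenerating fibres 4 fell. Cd74, the invariant chain that Ctss trims, rose by 1.29 ± 0.23 (adjusted p = 0.00667), and Ctss itself was at 0.01 ± 0.38.

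Members differed in how much they varied within a group. The median SD of the 38 members was 0.21 among the day 4 AREG arrays, 0.19 among the day 4 PBS arrays, 0.39 among the day 8 AREG arrays and 0.22 among the day 8 PBS arrays, beside 0.18, 0.13, 0.14 and 0.12 for all genes. The members were thus most scattered in the AREG group of day 8. Atp6v0d2 had the highest SD in each of the 4 groups, up to 1.08 among the day 8 AREG arrays. Lamp1 had the lowest SD among those arrays, 0.03, and Atp6v1h, a regulatory pump subunit, the lowest of all, 0.0095 among the day 8 PBS arrays.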

How the data were processed

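Per the labels and the series' design text, flash-frozen whole TA muscle was extracted with TRIzol and measured on Affymetrix Mouse Gene 1.0 ST arrays. The submitters' processing notes name Affymetrix Power Tools and RMA; the authors' RMA step corrects background, equalises arrays and summarises probes. RMA can compress differences of dim genes. For versions and genome build, nothing is stated in the sources at hand. As deposited, the values are intensities on a linear scale (4.65 to 21512.5, 24922 clusters, array medians 133.7 to 143.2); no 2 arrays were identical.

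Values were taken to log2. Clusters with 1 gene symbol (21425) were used, and 921 genes with several clusters took the brightest, none of them a member. A model of 4 group means was fitted per gene in limma 3.58.1 (R 4.3.3) with 8 residual and 7.1 prior degrees of freedom, and p-values were adjusted over 19752 genes (two-sided, threshold 0.05). The script was tested on simulated data. "Fell" and "rose" mean passing this test; a ± value is the SE of the fit with n = 3 per group unless SD is written. Comparisons were AREG against PBS on each day, their mean and difference, and the PBS groups. The number of arrays limits the precision. Summed levels are log2 of summed intensities, so bright clusters such as Psap weigh most and dim ones such as Atp6v0d2 little.

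Members, lists, motifs and tests were chosen with earlier results of these data known. Members called were named, up to 12 at day 4 and up to 6 elsewhere with every array's value, with the largest changes, the brightest clusters, the 4 smallest p where none was called, and up to 4 genes per further list.

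Residuals were used to check if equal replicate numbers mark pairs. Same-numbered arrays correlated at 0.558, 0.201 and 0.511 at day 4, and the numbers were treated as possible pairs there. However, AREG replicate 2 correlated more with PBS replicate 3 (0.27) than with its own number. At day 8 the correlations were -0.198, 0.123 and -0.003, and the numbers were not taken as pairs. Residuals of the 3 arrays in a group sum to 0, so the correlations depend on each other. The 0.558 came from the 2 arrays with the narrowest spread of values. Whether the numbers mark pairs at day 4 is therefore not settled. The design in use has no block, so its day 4 p-values do not use these possible pairs. The block alternative used the replicate numbers of both days, also where they were not taken as pairs. Alternatives were leaving out each array, the block, a pseudocount of 32, quantile normalisation, averaging a gene's clusters, array quality weights, fitting the 6 arrays of a comparison alone, a trended and robust eBayes prior, and dropping genes under the median level.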

Additional observations from a re-analysis of the deposited data

How the results depend on the processing

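The median member change kept its sign in all 5 comparisons under every alternative tried. The number of members called did not. At day 4, 14 members (with 2.9% of all genes) became 27 with array quality weights (26.9% of all genes). They became 9 with a pseudocount of 32 (1.81%) and 18 with the replicate block (4.63%). When 1 array was left out, 0 to 23 members passed, with 0.0456% to 6.76% of all genes. For the mean of both days, 17 (3.41%) became 28 with array quality weights (24.8%), of which 1 was higher. Without 1 array, 0 to 23 passed, with 0.172% to 7.53% of all genes. The 23, without day 8 AREG replicate 1, also held 1 that was higher. With array quality weights 12 members passed at day 8 (6.03%), 7 for the difference of the effects (11.3%) and 8 between the PBS groups (8.35%). In that fit the AREG arrays had weights of 0.167 to 7.43. Between the PBS groups, 1 member (2.34%) became 2 with the replicate block (2.46%), 3 with the 6 arrays alone (3.84%) and 2 after quantile normalisation (2.57%). Without 1 array, 0 to 2 passed there, with 1.06% to 3.64% of all genes. At day 8 and for the difference, the count stayed at 0 when 1 array was left out, with at most 0.00506% of all genes called. Leaving out both replicate 1 arrays of day 4, added after seeing the data, left 0 members at day 4 (0% of all genes). For the mean it left 0 members (0.127% of all genes). The medians were -0.62 and -0.45. The cause of these changes was not tested. The fit with the replicate block lost none of the 14 calls of day 4. Same-numbered PBS arrays of the 2 days correlated at -0.117, 0.059 and -0.068, so they share only a number. Replicate numbers at day 8 were not taken as pairs either.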
